A study of Oryza sativa Indica Group with 5 samples.

Results

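The genes described here are 7 transcription factors that control starch and storage protein genes in the rice endosperm, the tissue that fills most of the grain. They were chosen by locus name: RPBF (LOC_Os02g15350), RISBZ1, also called bZIP58 (LOC_Os07g08420), bZIP33 (LOC_Os03g58250), NF-YC12 (LOC_Os10g11580), NAC20 (LOC_Os01g01470), NAC26 (LOC_Os01g29840) and RSR1 (LOC_Os05g03040). All 7 have a probe on the array, with 11 probes between them, out of 48857 loci represented. Developing seed of rice (Oryza sativa, Indica group), harvested 16 days after flowering, was profiled on single-colour Agilent arrays, 1 array for each of 5 accessions. By their labels, 3 of the accessions are haplotype 8 with high-amylose grain, and the other 2 are haplotype 4 with waxy grain, the kind in which starch is nearly free of amylose. All plants were grown without treatment in a controlled glasshouse (29 °C in daytime, 21 °C at night), and RNA came from 200 mg of pulverised whole seed, so each value mixes endosperm with embryo and outer layers. The series asked which transcripts differ between haplotype 8 and haplotype 4, and each accession stands for itself, with no repeat array.

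Cereal endosperm genes are switched on by a small set of factors that meet at short promoter elements. RPBF, a Dof zinc-finger protein, binds the prolamin box, and RISBZ1, a basic leucine zipper protein, binds the GCN4 motif. The pair act together on glutelin, prolamin and starch synthesis genes. bZIP33 is a further leucine zipper protein of the endosperm. NF-YC12 is a subunit of the heterotrimeric factor NF-Y and works with NF-YB1 and the helix-loop-helix protein bHLH144 on Waxy, the gene of the granule-bound starch synthase that makes amylose. NAC20 and NAC26 are closely related NAC-domain factors with overlapping roles in starch and storage protein synthesis. RSR1, an AP2-type protein, is the repressor of the set and holds down starch synthesis genes.

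Array brightness varied between accessions. The 75th percentile of the processed signal, the value each array was scaled by, ranged from 88.8 to 212, and 50.2% to 58.7% of spots were well above background, which is the scanner software's own detection flag. High-amylose replicates 2 and 3 were the dimmest arrays and shared a scan date. Both waxy arrays shared another date, so for every group difference below scan date and haplotype cannot be told apart. The label of the tissue was checked on glutelins, the main storage proteins of the endosperm. All 8 tested glutelin loci were well above background on all 5 arrays, at log2 signals of 7.95 to 10.5 above the array's 75th percentile. Markers of green outer layers were detected far more weakly, and the log2 of their mean signal was -2.58, -0.46 and 0.76 in high-amylose seed (replicates 1, 2 and 3) against -2.52 and -2.12 in waxy seed. Of these 14 green-tissue loci, 12 were tested and 7 were well above background on all 5 arrays. The 12 had a median log2 difference of 1.73, but some of them were tested only through the arrays on which they were high. The 7 had a median of 1.39. Without high-amylose replicates 2 and 3 the median of the 12 was -0.23. Embryo and aleurone markers (5 of 5 loci tested, all well above background on every array) had a log2 mean signal of 7.97, 8.30 and 7.10 in high-amylose seed against 7.17 and 7.70 in waxy seed.

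Transcripts of all 7 factors were detected in both kinds of seed, and for 6 of them the group means were 1.03-fold to 1.22-fold apart. Among these 6, bZIP33 was not well above background on high-amylose replicates 2 and 3, so its value is not a measured fold. NF-YC12 was the member with the largest difference in the reported fit, 2.10-fold higher in high-amylose seed, and its lowest high-amylose value lay above its highest waxy value. None of the 7 passed the test across all loci (limma, Benjamini-Hochberg adjusted p = 1.00 for each), where 8 of 28945 loci passed, or 0.0276%. Those 8 loci were each well above background on only 2 or 3 arrays, and the smallest of their absolute log2 differences was 3.89. In the same fit 1 of the 7, NF-YC12, had an unadjusted p under 0.05, as did 3.4% of all loci. Groups did not overlap at 1 of the 7 members and at 13.5% of all loci, 8.52% with high-amylose seed higher. Of the 7 members, 6 had a positive difference (high-amylose minus waxy), as did 53.9% of all loci, and the members' median log2 difference was 0.11 against 0.03 over all loci. Because whole seed was measured, fewer cells of a type and less RNA per cell cannot be told apart.

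**Figure D1:**
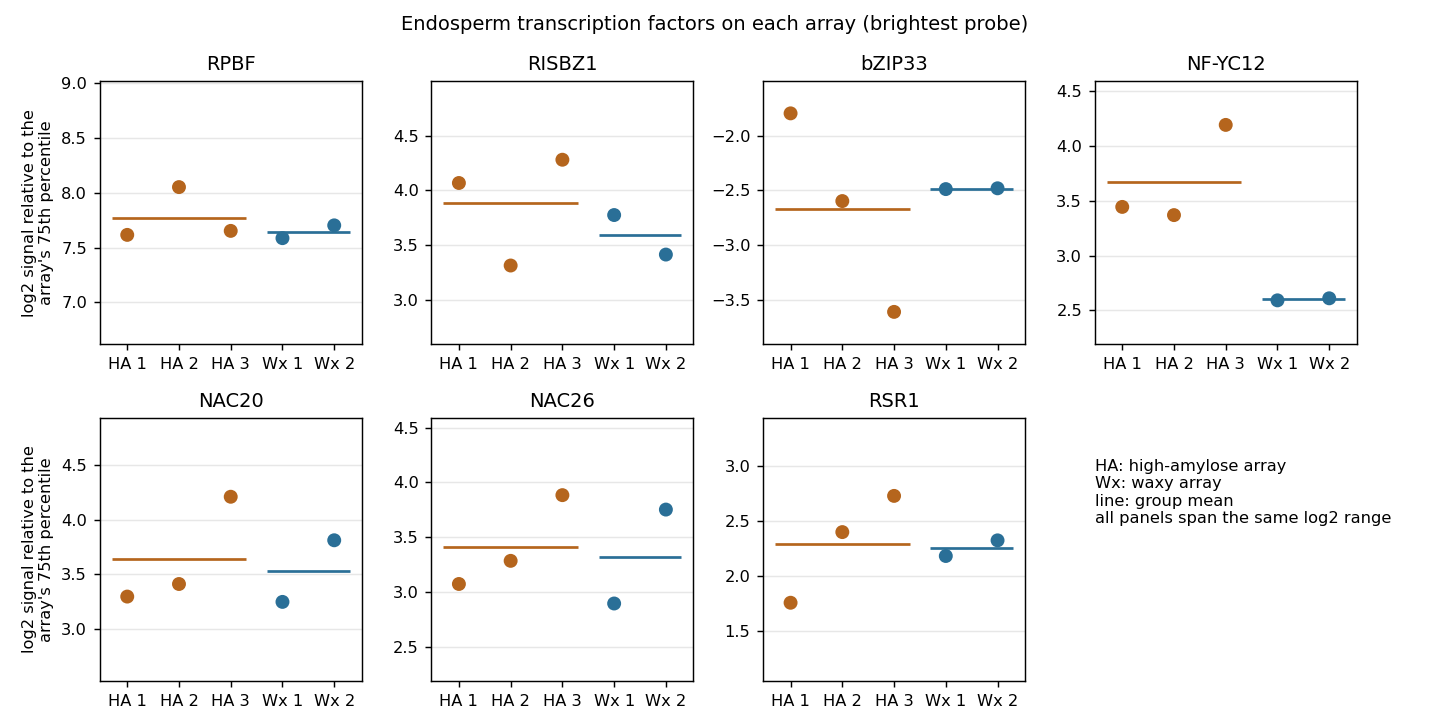
Log2 signal of the 7 factors relative to the array's 75th percentile (vertical axis) on each of the 5 arrays (horizontal axis; HA is high-amylose, Wx is waxy), 1 point per array, with a line at each group mean. NF-YC12 lies between 3.37 and 4.19 in high-amylose seed and at 2.59 and 2.61 in waxy seed, while the groups overlap for the other 6 factors.

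RPBF, the prolamin-box factor, was measured by a bright and a dim probe. The brighter probe read a log2 signal of 7.62, 8.05 and 7.65 in high-amylose seed (replicates 1, 2 and 3, the order used throughout) against 7.59 and 7.70 in waxy seed (replicates 1 and 2). Waxy replicate 2 lay inside the high-amylose range and waxy replicate 1 just below it, so the groups overlapped. The fitted difference was 0.13 (SE 0.41, 95% interval -0.79 to 1.05, limma adjusted p = 1.00), and its sign turned under 6 of 16 alternatives. The dimmer RPBF probe read 1.96, 2.18 and 1.61 against 1.41 and 1.05. There the groups did not overlap, and high-amylose seed was higher by 0.68 (SE 0.42), which did not pass with every probe tested apart (limma adjusted p = 1.00). The probes of RPBF therefore gave different sizes of difference, and the order of the waxy arrays was opposite in them.

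RISBZ1, the GCN4-motif activator, has 1 probe. Its log2 signal was 4.07, 3.32 and 4.28 in high-amylose seed against 3.78 and 3.42 in waxy seed. High-amylose replicate 2 was the lowest of the 5 arrays and replicate 3 the highest, so the waxy values fell inside the high-amylose range. The difference of 0.29 (SE 0.46, 95% interval -0.73 to 1.32) did not pass (limma adjusted p = 1.00), and 46.1% of all loci differed by at least as much. It kept its positive sign in all 16 alternatives, at 0.096 to 0.58. Those that changed only the probe filter or the combining of probes left the difference at 0.29.

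bZIP33 was the faintest member. Its processed signal was 52.8, 17.9 and 7.29 in high-amylose seed against 36.2 and 37.9 in waxy seed. It was well above background on both waxy arrays and on high-amylose replicate 1, but not on replicates 2 and 3, the dimmest arrays. On the log2 scale these values were -1.80, -2.60 and -3.61 against -2.49 and -2.48, where the values of replicates 2 and 3 are not well above background and give no measured fold. The difference was -0.18 (SE 0.55, 95% interval -1.42 to 1.05, limma adjusted p = 1.00). Its sign rested on high-amylose replicate 3, without which it was 0.29. Of the 7 members, 6 were well above background on all 5 arrays, and bZIP33 was the exception.

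NF-YC12, the NF-Y subunit, was higher on each high-amylose array than on either waxy array, although the difference did not pass across all loci. Its log2 signal was 3.44, 3.37 and 4.19 in high-amylose replicates 1, 2 and 3, against 2.59 and 2.61 in waxy seed. The waxy accessions were 1.01-fold apart, whereas the high-amylose accessions spanned 1.77-fold. The difference was 1.07 (SE 0.44, 95% interval 0.080 to 2.05, limma unadjusted p = 0.0369, adjusted p = 1.00), and 6.65% of all loci differed by at least as much. An exact two-sided permutation test over the 10 splits of the arrays gave p = 0.1, the smallest this design allows. Over 16 alternative ways of processing, limma adjusted p was 0.31 to 1.00. Alternatives that changed only the probe filter or the combining of probes left the difference at 1.07, because NF-YC12 has 1 probe. As its groups did not overlap, leaving out arrays or adding a term for high-amylose replicates 2 and 3 could not turn the sign. Other scalings could have turned it. The difference stayed positive in all 16, from 0.81 without high-amylose replicate 3 to 1.22 without high-amylose replicate 2. With scan date as a random block it was 1.05 (SE 0.49, limma unadjusted p = 0.0602), and with a term for high-amylose replicates 2 and 3 the unadjusted limma p was 0.138, so the unadjusted p then missed 0.05. It also missed 0.05 without high-amylose replicate 3 (limma unadjusted p = 0.0785), waxy replicate 1 (0.162) or waxy replicate 2 (0.155). On replicate 3, where NF-YC12 was highest, green-tissue markers were also highest, with a median deviation of 2.49 from the mean of the group means. Their part in the value of NF-YC12 was not tested. RISBZ1, NAC20, NAC26 and RSR1, though not RPBF or bZIP33, were likewise highest on that array, which was the dimmest. NF-YC12 has 1 probe, in 1 spot.

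Members were also compared within arrays, where a constant scaling factor of an array drops out. Each member's deviation from its own mean was set against that of each other member on the same array. Groups did not overlap in 6 of the 21 pairs, and NF-YC12 was in all 6. NF-YC12 relative to NAC20, for example, was at 0.60, 0.41 and 0.43 in high-amylose seed against -0.21 and -0.75 in waxy seed. These 6 pairs share the values of NF-YC12, whose groups already did not overlap, and are not separate evidence. No such share for pairs of other loci is given here. They do not show which member of a pair differed.

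The known partners of NF-YC12 were set beside it. NF-YB1 (LOC_Os02g49410), the endosperm subunit that binds it, had a log2 signal of 1.96, 2.01 and 2.81 in high-amylose seed against 0.85 and 1.42 in waxy seed. Its unadjusted limma p was among the 2 smallest of the regulator list, a rule by which loci are named here. The difference of NF-YB1 is therefore not separate evidence. As for NF-YC12, the groups did not overlap and high-amylose replicate 3 was highest. That array was also highest for RISBZ1, NAC20, NAC26 and RSR1, though not for RPBF or bZIP33. The difference of NF-YB1 was 1.12 (SE 0.46, 2.17-fold) and did not pass (limma adjusted p = 1.00). bHLH144 (LOC_Os04g35010), named here for its known tie to NF-YC12 after its values were seen, was at 1.92, 0.95 and 1.23 against 0.92 and 1.12. Its groups overlapped, and the difference was 0.35 (SE 0.45). Waxy (LOC_Os06g04200), the target they share, had a log2 signal of 8.21 and 3.70 on waxy replicates 1 and 2, a 22.8-fold gap between accessions in which NF-YC12 was 1.01-fold apart. Between the same accessions NF-YB1 was 1.48-fold apart. In high-amylose seed Waxy was at 7.96, 8.46 and 8.32, so waxy replicate 1 lay inside the high-amylose range for Waxy. These are single arrays, and a relation of Waxy to either NF-Y subunit was not tested. FLO6 (LOC_Os03g48170), a starch-granule protein gene and a reported target of NF-YC12, also chosen after its values were seen, was at 0.03 (SE 0.51). GS1;3 (LOC_Os03g50490), a glutamine synthetase gene and another reported target, was at 0.75 (SE 0.55). Neither passed (limma adjusted p = 1.00 for both).

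**Figure D2:**
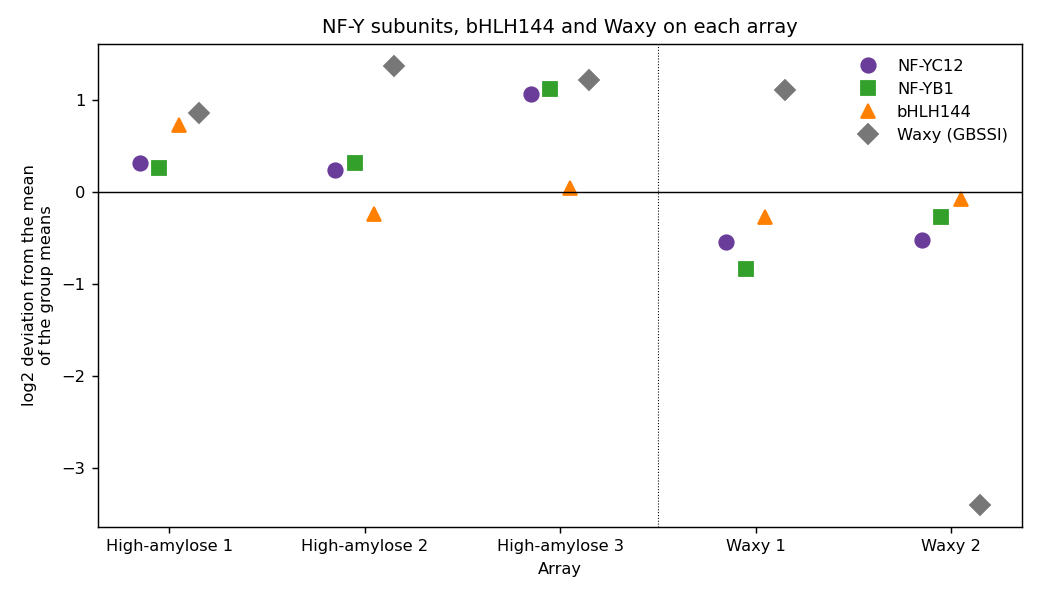
Log2 deviation of NF-YC12, NF-YB1, bHLH144 and Waxy from the mean of the group means (vertical axis) on each array (horizontal axis), 1 marker per gene and array. Both NF-Y subunits lie above 0 in high-amylose seed and below 0 in waxy seed, whereas Waxy is low on waxy replicate 2 alone. Because each gene is centred between its own group means, groups that do not overlap tend to fall on either side of 0.

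NAC20 and NAC26 had closely similar profiles over the arrays, and their difference between the waxy accessions was larger than that between the group means. The brighter NAC20 probe read 3.30, 3.41 and 4.21 in high-amylose seed against 3.25 and 3.81 in waxy seed. The brighter NAC26 probe read 3.07, 3.29 and 3.88 against 2.90 and 3.75. In both genes waxy replicate 1 was the lowest array, high-amylose replicate 3 the highest and waxy replicate 2 second highest, so the groups overlapped. The group difference was 0.11 for NAC20 (SE 0.46, 95% interval -0.93 to 1.15) and 0.09 for NAC26 (SE 0.47, 95% interval -0.96 to 1.14), and neither passed (limma adjusted p = 1.00 for both). Both differences turned negative without high-amylose replicate 3, to -0.18 and -0.14, and also without waxy replicate 1, to -0.17 and -0.34. Without waxy replicate 2 they were 0.39 and 0.52.

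The second probes of NAC20 and NAC26 ordered the waxy arrays the same way, and their groups overlapped too. The dimmer NAC26 probe read 1.22, 1.38 and 1.38 in high-amylose seed against 0.35 and 1.54 in waxy seed. The dimmer NAC20 probe, spotted 6 times on each array, read 2.01, 1.99 and 2.39 against 1.53 and 2.35. Waxy replicate 2 thus exceeded waxy replicate 1 by 0.56 and 0.82 in the NAC20 probes and by 0.86 and 1.19 in the NAC26 probes, or 1.48-fold to 2.29-fold. For the brighter probes, 28.5% and 15.0% of all loci differed as much between the waxy arrays as NAC20 and NAC26 did. The 6 spots of NAC20 give the measurement error within an array, a pooled SD of 0.089 with 1 spot marked as an outlier on waxy replicate 1 left out. The SD between arrays for that probe was 0.23 in high-amylose seed (n = 3) and 0.58 in waxy seed (n = 2). With the outlier spot counted, which was the lowest, the 6 spots ranged from 1.21 to 1.62 on waxy replicate 1. They ranged from 2.27 to 2.39 on waxy replicate 2. Spots of 1 array share labelling, hybridisation and scan, so their spread holds none of the error between arrays.

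**Figure D3:**
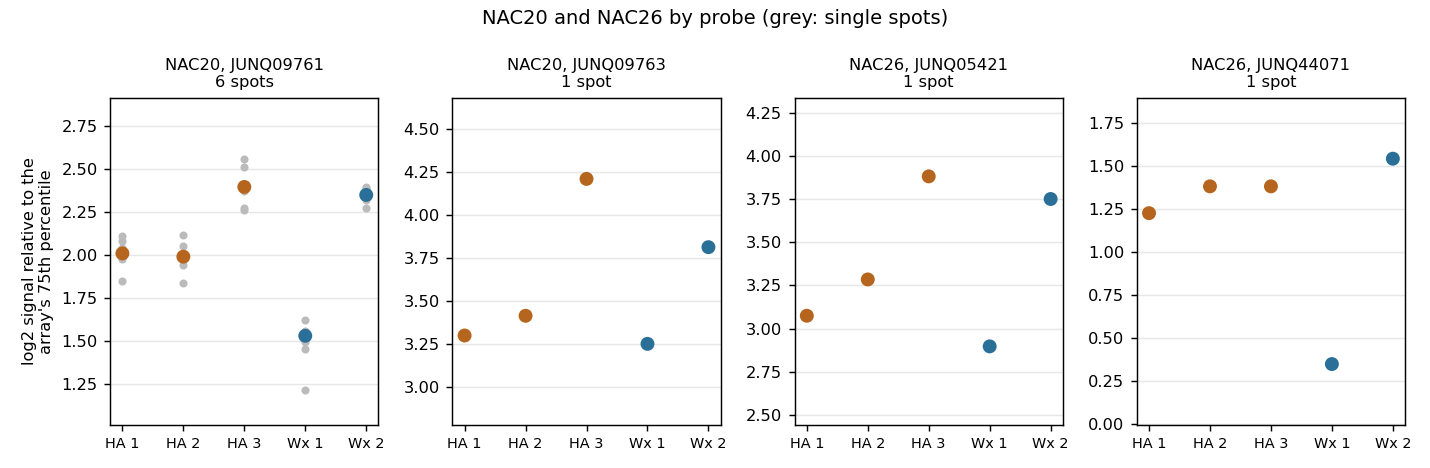
Log2 signal relative to the array's 75th percentile (vertical axis) for the 2 probes of NAC20 and the 2 of NAC26 on each array (horizontal axis; HA is high-amylose, Wx is waxy), with the 6 single spots of 1 NAC20 probe in grey. In all 4 probes waxy replicate 1 is the lowest of the 5 arrays, at 0.35 to 3.25, and waxy replicate 2 lies 0.56 to 1.19 above it.

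RSR1, the repressor of starch synthesis genes, showed nearly equal group means. Its brighter probe read 1.76, 2.40 and 2.73 in high-amylose seed against 2.18 and 2.32 in waxy seed. High-amylose replicate 1 was the lowest array and replicate 3 the highest, and the waxy arrays lay between them. The difference was 0.04 (SE 0.45, 95% interval -0.96 to 1.05, limma adjusted p = 1.00), 90.9% of all loci differed by at least as much, and the sign turned in 9 of 16 alternatives. The second RSR1 probe was well above background on 1 array, waxy replicate 1, and was not tested. The RSR1 probes carry the names of different transcript models of the locus. On high-amylose replicate 1, where RSR1 was lowest, the starch synthesis genes listed next were highest, with a median deviation of 0.58, against -0.62 and -0.33 on replicates 2 and 3. The starch median was 0.10 and 0.29 on waxy replicates 1 and 2. From waxy replicate 1 to 2, and from high-amylose replicate 2 to 3, RSR1 and the starch median both rose. These are single arrays set side by side, and a relation between RSR1 and the starch genes was not tested.

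The genes these factors act on were described from lists of known targets. Of 12 starch synthesis loci, 11 were tested, 4 had positive and 7 negative differences, and 0 passed in either direction, with a median of -0.32. AGPS2 (LOC_Os08g25734), the small subunit of the enzyme that makes ADP-glucose for starch, was at 5.84 to 6.62 in high-amylose seed against 6.64 and 7.12 in waxy seed. The groups did not overlap, and high-amylose seed was lower, at -0.72 (SE 0.44), which did not pass (limma adjusted p = 1.00). Waxy, at 2.29 (SE 1.03), did not pass either. The starch list's median was 0.50 with replicates 2 and 3 of high-amylose seed left out, the opposite sign.

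Among storage protein targets, 8 of 10 glutelin loci were tested, 6 had positive and 2 negative differences and 0 passed, with a median of 0.15 that turned to -0.12 under quantile scaling. The glutelin gene LOC_Os02g15090 read 8.64, 8.54 and 9.03 in high-amylose seed against 8.34 and 7.95 in waxy seed. The groups did not overlap there, and high-amylose seed was higher by 0.59 (SE 0.42, limma adjusted p = 1.00). GluA-3 (LOC_Os03g31360) was at 0.41 (SE 0.43). Near-identical glutelin copies may share probe signal, so single glutelin values are uncertain. Among 5 further targets, all 5 had positive differences and 0 passed, with a median of 0.46, against 0.055 under quantile scaling. PPDKB (LOC_Os05g33570), a pyruvate orthophosphate dikinase of the endosperm known as FLO4, was at 3.07, 0.80 and 1.95 against 0.17 and 1.67, overlapping groups with a difference of 1.02 (SE 0.70).

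The other regulators of endosperm development were described in the same way. Of 12 loci, all 12 were tested and well above background on every array, 9 had positive and 3 negative differences, and 0 passed, with a median of 0.14. That median was 0.0056 without high-amylose replicate 3, 0.23 without waxy replicate 2 and -0.047 without high-amylose replicates 2 and 3. NAC129 (LOC_Os11g31380), a grain-filling NAC factor, had the smallest unadjusted p in the list, at 2.06 (SE 0.78, 4.16-fold, limma adjusted p = 1.00). Its log2 signal was 3.79, 2.16 and 3.61 in high-amylose seed against -0.20 and 2.46 in waxy seed. It was thus low on waxy replicate 1, the array on which NAC20 and NAC26 were also lowest, and waxy replicate 2 lay inside the high-amylose range.

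**Figure D4:**
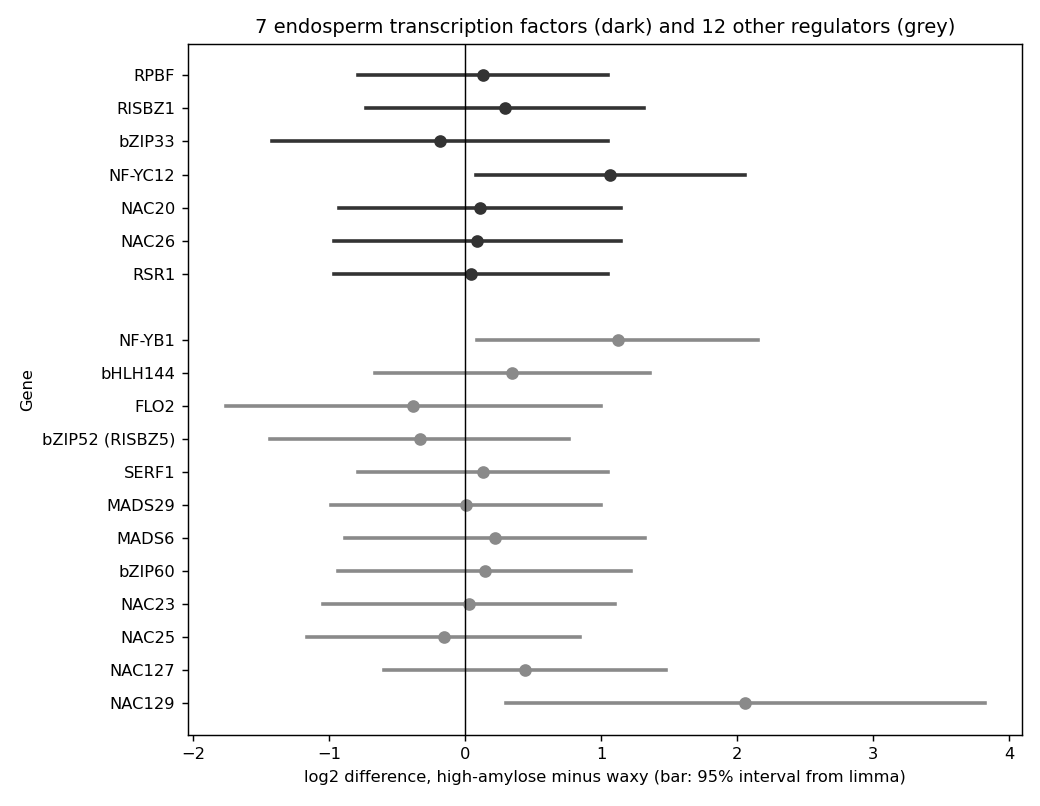
Log2 difference, high-amylose minus waxy (horizontal axis), with its 95% interval from limma for the 7 factors and 12 other regulators (vertical axis). Among the 7 factors the interval of NF-YC12, 0.080 to 2.05, lies above 0 in the fit without scan date, and the other 6 intervals cross 0. No difference passed after adjustment over all loci.

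The direction of the members' differences was compared over 16 alternative ways of processing, among them other scalings and leaving out each array in turn. NF-YC12 and RISBZ1 were higher in high-amylose seed in all 16. The sign turned in 6 of 16 for RPBF, in 4 of 15 for bZIP33, in 4 of 16 each for NAC20 and NAC26, and in 9 of 16 for RSR1. None of the members passed in any of them.

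**Figure D5:**
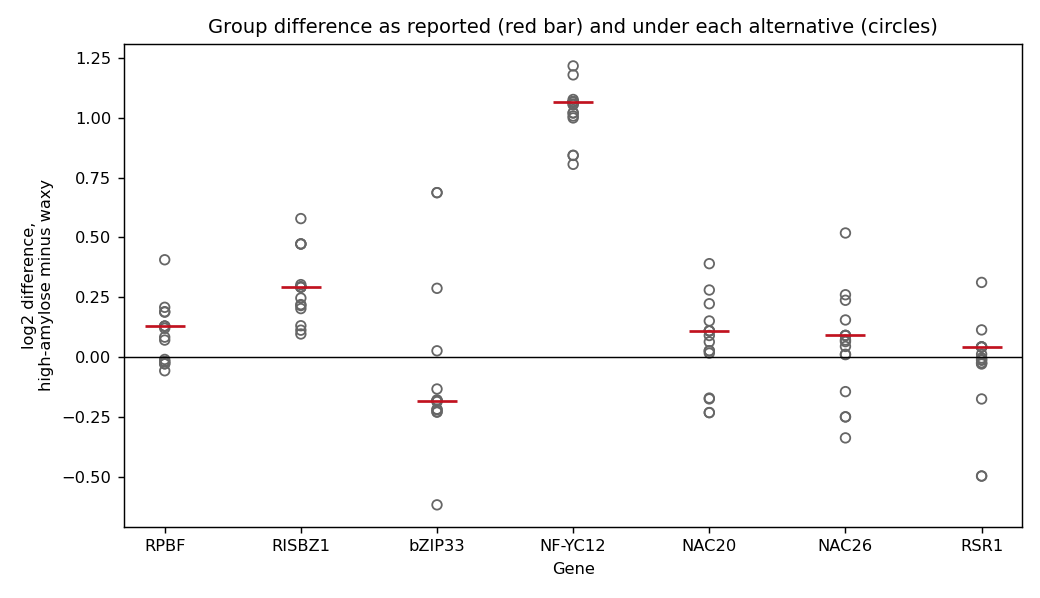
Log2 difference, high-amylose minus waxy (vertical axis), of the 7 factors (horizontal axis), with the value as reported as a red bar and 1 circle for each alternative. NF-YC12 stays between 0.81 and 1.22, RISBZ1 stays between 0.096 and 0.58, and the other 5 factors have circles on both sides of 0.

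Likeness of pattern was measured as the root mean square difference between 2 profiles over the 5 arrays, each centred on its own mean, on the log2 scale. Among the 21 pairs of members, NAC20 and NAC26 were closest, at 0.11. NAC26 ranked 88 among 22558 loci by closeness to NAC20, and NAC20 ranked 37 by closeness to NAC26. Among the 48 loci of the target, regulator and marker lists that were well above background on all 5 arrays, the closest to NF-YC12 was its partner NF-YB1, at 0.18, which ranked 26 of 22553 loci. The closest listed locus to RPBF was SERF1 (LOC_Os05g34730), known as a negative regulator of grain filling that acts on RPBF. SERF1 lay at 0.091 and ranked 223 over all loci. NAC23 (LOC_Os02g12310), a seed NAC factor, was closest to RISBZ1, at 0.20, and ranked 202. MADS29 (LOC_Os02g07430), a MADS-box factor of seed development, was closest to RSR1, at 0.083, and ranked 414. MADS6 (LOC_Os02g45770), another MADS-box factor, was closest to both NAC20 and NAC26, at 0.21 and 0.25, and ranked 1647 and 1814. Many other loci thus lay closer to these members than the listed ones did. Over all loci, the nearest to NF-YC12 was LOC_Os04g33600, at 0.059, followed by LOC_Os03g25090, at 0.085. The nearest to the other 5 members compared lay at 0.021 to 0.042.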

How the data were processed

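Spot intensity was read from the Feature Extraction 11.5.1.1 files that the authors deposited (protocol GE1_1105_Oct12, grid of build IRGSP5). The processed intensity had background and spatial trend removed on each array, with no scaling between arrays, per the file headers. A table of log2 values was also deposited by the authors. The submitters' processing notes name limma for it, while its normalization and per-probe baseline are not given in the sources used here. Column-to-column differences followed quantile-normalized log2 intensity with slopes of 0.989 to 0.992, and its column medians were -0.0172, 0.0395, 0.0270, -0.0227 and 0.00414 in the order of the arrays, so its scale and direction are settled and its baseline stays unknown.

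Here, control spots were left out and log2 processed intensity was set relative to each array's 75th percentile. Spots of a probe were averaged, without those marked as outliers. A probe was tested if well above background on at least 2 of 5 arrays, which kept 35634 probes, and a locus was represented by its brightest probe, which left 28945 loci. The 7 members were read through that brightest probe, and all their probes are shown. limma 3.58.1 in R 4.3.3 (two-sided, no covariate, all 5 arrays) compared the groups, at a threshold of 0.05 on Benjamini-Hochberg p-values adjusted over all loci. The script was tested on simulated data. Figures used Python 3.11.15 and matplotlib 3.10.9.

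The p-values measure the spread between accessions, 1 array each, which may be partly technical. Precision is limited by the number of arrays: a log2 difference had a median standard error of 0.46. The members and lists were chosen with earlier results of these data known. From each list the text names the loci that pass, the 2 with the smallest p, and Waxy, and for each member the nearest loci by pattern. Gene symbols come from general knowledge of the locus names, and the reference gene table matched 0 of the 7 by locus name. The classes in the deposited probe names are not defined in the sources used here. No sequence was used.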

Additional observations from a re-analysis of the deposited data

How the results depend on the processing

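No member passed the test in any of the 16 alternatives in which it was tested, 1 of which, leaving out both high-amylose arrays that share a scan date, was chosen after seeing the data. bZIP33 was tested in 15 of them, because it was not well above background on all 5 arrays. NF-YC12 and RISBZ1 kept their sign in all 16, several of which could not change the value of a member with 1 tested probe. The sign of the other 5 members turned in some, and the cause was not tested. Under quantile normalization RPBF was at -0.020 and RSR1 at -0.025, under normexp RPBF was at -0.018, bZIP33 at 0.026 and RSR1 at -0.014, and in the deposited log2 table RPBF was at -0.058 and RSR1 at -0.025. With the percentile taken over probes detected on all arrays, RSR1 was at -0.0040. With a term for high-amylose replicates 2 and 3, and equally with both left out, so that replicate 1 alone stood for high-amylose seed, RPBF was at -0.028, bZIP33 at 0.69, NAC20 at -0.23, NAC26 at -0.25 and RSR1 at -0.50. The list medians there were 0.50 for starch synthesis, 0.32 for glutelins, 0.17 for the 5 further targets and -0.23 for green-tissue markers.

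Under quantile normalization, normexp and the deposited table the glutelin median was -0.12, -0.048 and -0.18, and that of the further targets 0.055, 0.015 and 0.050. Leaving out 1 array at a time gave -0.010 to 0.21 for RPBF, 0.096 to 0.58 for RISBZ1, -0.62 to 0.29 for bZIP33, 0.81 to 1.22 for NF-YC12, -0.18 to 0.39 for NAC20, -0.34 to 0.52 for NAC26, -0.18 to 0.31 for RSR1 and 0.048 to 0.28 for the glutelin median.

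The count of passing loci, 8 as reported (3 higher and 5 lower in high-amylose seed), was 3 (0 higher) under quantile normalization, in the deposited table and with the percentile over detected probes. It was 21 (11 higher, 0 shared with the 8) among loci detected on all 5 arrays, where the 8 were not tested. limma gave 0 under normexp, with the term for replicates 2 and 3 and without both, where 650, 1162 and 1663 loci had an unadjusted p under 0.05. Leaving out 1 array gave 3 to 179, with 5 without high-amylose replicate 2, 3 without replicate 3, 72 without waxy replicate 1 and 179 without waxy replicate 2. No paired analysis was possible because the labels carry no replicate numbers that the groups share. Signal over background limits bZIP33 and the second RSR1 probe.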

Other observations

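The 3 NAC loci of chromosome 11 among the other regulators lie close together by locus name and had unlike profiles. NAC25 and NAC127 were chosen for this description after their values were seen. NAC25 (LOC_Os11g31330) had a log2 signal of 4.65, 4.62 and 5.49 in high-amylose replicates 1, 2 and 3, against 5.09 and 5.07 in waxy replicates 1 and 2. Its groups overlapped, at a difference of -0.16 (SE 0.45). NAC127 (LOC_Os11g31340) was at -0.93, -0.07 and -0.02 against -1.01 and -0.55, with a difference of 0.44 (SE 0.46). In NAC127 and NAC129 waxy replicate 1 was the lowest array, as it was for NAC20 and NAC26, and in NAC25 high-amylose replicate 2 was the lowest. None of the 3 passed (limma adjusted p = 1.00 for each).

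Embryo and aleurone markers gave values of the other main tissues of the seed. Of the 5 loci, 4 had positive and 1 a negative difference, 0 passed, and the median was 0.11. It ran from -0.17 to 0.71 with 1 array left out at a time and was 0.83 without high-amylose replicates 2 and 3. 1-Cys peroxiredoxin (LOC_Os07g44430) was at 0.54 (SE 0.44) and the oleosin gene OLE16 (LOC_Os04g46200) at 0.47 (SE 0.60). OLE16 read 7.53, 7.98 and 5.99 in high-amylose seed against 6.45 and 6.95 in waxy seed. Its lowest array was thus high-amylose replicate 3, on which NF-YC12, RISBZ1, NAC20, NAC26 and RSR1 were highest. The listed markers OLE18 and EMP1 were also lowest there, whereas 1-Cys peroxiredoxin and RAB16A were lowest on waxy replicate 1. Of the green-tissue markers, LHCA (LOC_Os08g33820) and LHCB (LOC_Os07g37240), both antenna protein genes, had the smallest unadjusted p. Each was well above background on high-amylose replicates 2 and 3 alone, and so was tested only through the group in which it was higher.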
